A study of Mus musculus with 13 samples.

Results

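Nuclear receptors are transcription factors, many of which are switched by a small fat-soluble ligand, such as a steroid, thyroid hormone, retinoic acid, vitamin D, a fatty acid or a bile acid. The present account follows the 46 named receptor genes of this family through RNA-seq of pacemaker cells (PC) and right atrial cardiomyocytes (RACM) of newborn mice. The members were found by matching the gene IDs of the deposited exon count table to mouse symbols, and all 46 were matched, out of 55487 gene IDs in the table.

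PC set the rhythm of the heart from the sinoatrial node, and RACM are the working muscle cells next to it. Both came from neonatal hearts of the genotype Hcn4-GFP/Myh6-mCherry, in which a green reporter follows the pacemaker channel gene Hcn4 and a red reporter follows the cardiac myosin gene Myh6. For every replicate, 8 to 10 hearts were pooled at the border between the node and the right atrium, dissociated and sorted by fluorescence, so no library is a single animal. Each cell type had 3 libraries, whose titles number them p0, p2 and p4, and the labels of these libraries do not say what the number stands for. Values of single libraries are listed in the order p0, p2, p4. The series also has 7 chromatin (ATAC-seq) samples, which were not analysed here.

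A nuclear receptor usually binds DNA as a dimer at copies of a short DNA motif, and many of the ligand-switched ones pair with a retinoid X receptor (RXR). Without ligand several of them hold corepressors, and ligand exchanges these for coactivators. In heart muscle the family is known for hormone responses and for control of fuel use, and the REV-ERB and ROR receptors also form an arm of the circadian clock.

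The libraries held 14141151 to 22290996 counted fragments. All 6 markers of pacemaker cells (Hcn4, Isl1, Shox2, Tbx3, Smoc2 and Vsnl1) were higher in PC, and Hcn4 was part of the sort. Of 8 atrial markers 5 were lower in PC, among them Nppa and Bmp10. RNA of other cells was unevenly spread. The summed level of 12 macrophage and leukocyte markers, in counts scaled to a common library size (CPM), came to 29.9, 10.2 and 57.4 in PC, against 188, 508 and 872 in RACM. None of the 12 was at 0 in every library, although Ptprc and C1qa were at 0 in PC p2. The summed level of 11 fibroblast markers was 949 to 2323 CPM in PC and 1754 to 11473 CPM in RACM, highest in p4 of both cell types. For 10 smooth muscle and pericyte markers the sum was 678, 438 and 720 CPM in PC, against 217, 310 and 685 CPM in RACM. Of these 10, 3 were called higher and 2 lower in PC. For 8 cardiomyocyte markers the sum was 103248 to 112424 CPM in PC, against 97530, 95580 and 66556 CPM in RACM. In such bulk samples, fewer cells of a type and less RNA per cell cannot be told apart.

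Across the genome, 18015 genes had enough counts to be tested, and 36 of the 46 receptors were among them. The edgeR quasi-likelihood test with Benjamini-Hochberg adjustment over all 18015 genes called 2 receptors higher in PC, Nr0b2 and Esr1, and 2 lower in PC, Vdr and Nr1h4. The other 32 did not pass at an adjusted p of 0.05. Over all genes the same rule called 7.27% in either direction, 3.69% higher and 3.57% lower, so 4 of 36 is near that background. Among the 36 receptors 19 had a positive and 17 a negative log2 fold change of PC over RACM, with a median of 0.03, against 0.01 over all genes tested. For 12 of the 36 every library of one cell type lay above every library of the other, 6 with PC above and 6 with RACM above, beside 26.9% of all genes. The summed level of all 46 receptors was 1017, 1301 and 961 CPM in PC, against 1095, 1254 and 1168 CPM in RACM, so these sums overlapped.

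**Figure D1:**
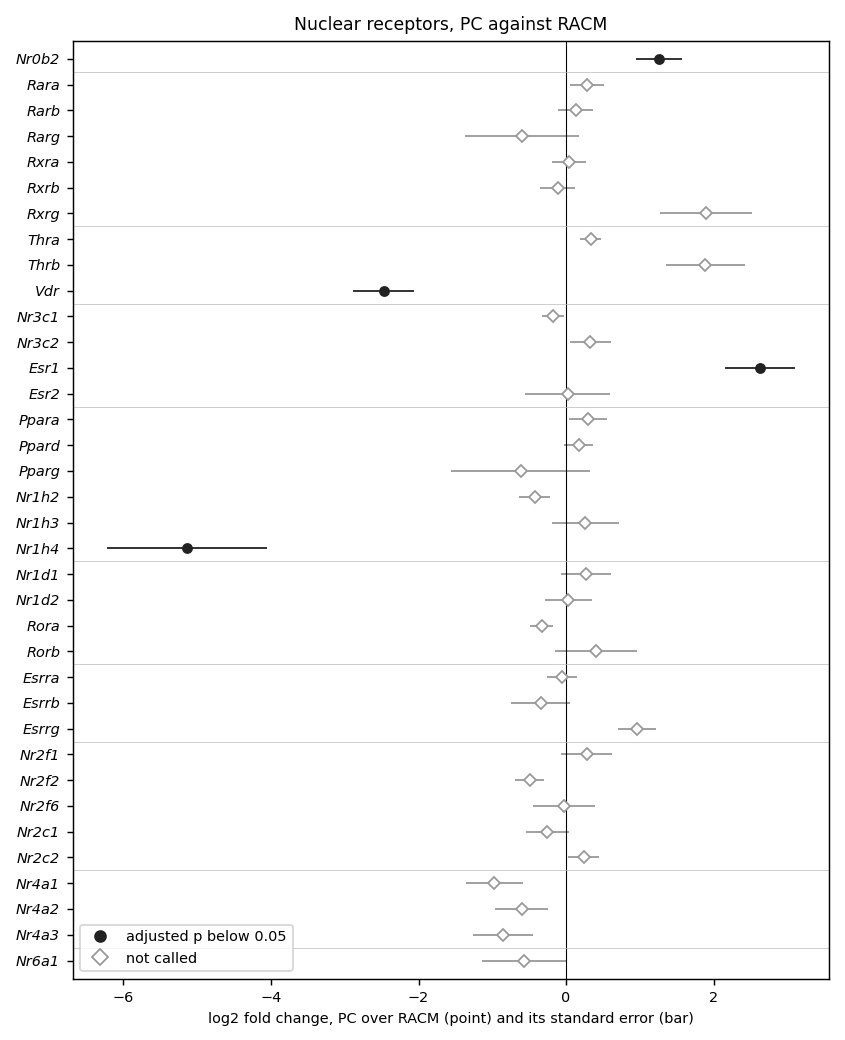
Log2 fold change of PC over RACM (x axis, point) with its standard error (bar) for the 36 tested receptors (y axis, grouped by role). Filled points passed an adjusted p of 0.05: Nr0b2 and Esr1 lie to the right of 0, Vdr and Nr1h4 to the left.

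To compare receptors with each other, levels were divided by exon length and given as RPKM (CPM per kilobase of exon). On that scale the highest receptor in PC was Thra at 27.4 ± 1.61 RPKM, followed by Nr1d1 at 25.1 ± 9.61 and Nr4a1 at 24.3 ± 12.8 (SD, n = 3), and these 3 differed by less than the spread of Nr1d1 and Nr4a1. In RACM the highest was Nr4a1 at 47.7 ± 19.0 RPKM, followed by Thra at 21.8 ± 1.67 and Nr1d1 at 20.8 ± 8.35, and the last 2 did not differ beyond their spread. Nr0b2 stood at 12.1 ± 0.602 RPKM in PC and 5.05 ± 1.42 RPKM in RACM. Vdr stood at 2.46 ± 1.15 RPKM in PC and 13.6 ± 5.50 RPKM in RACM, where it was close to Nr3c1 at 13.4 ± 0.979. Esr1 was low in both, at 0.472 ± 0.148 RPKM in PC and 0.0761 ± 0.0115 RPKM in RACM.

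**Figure D2:**
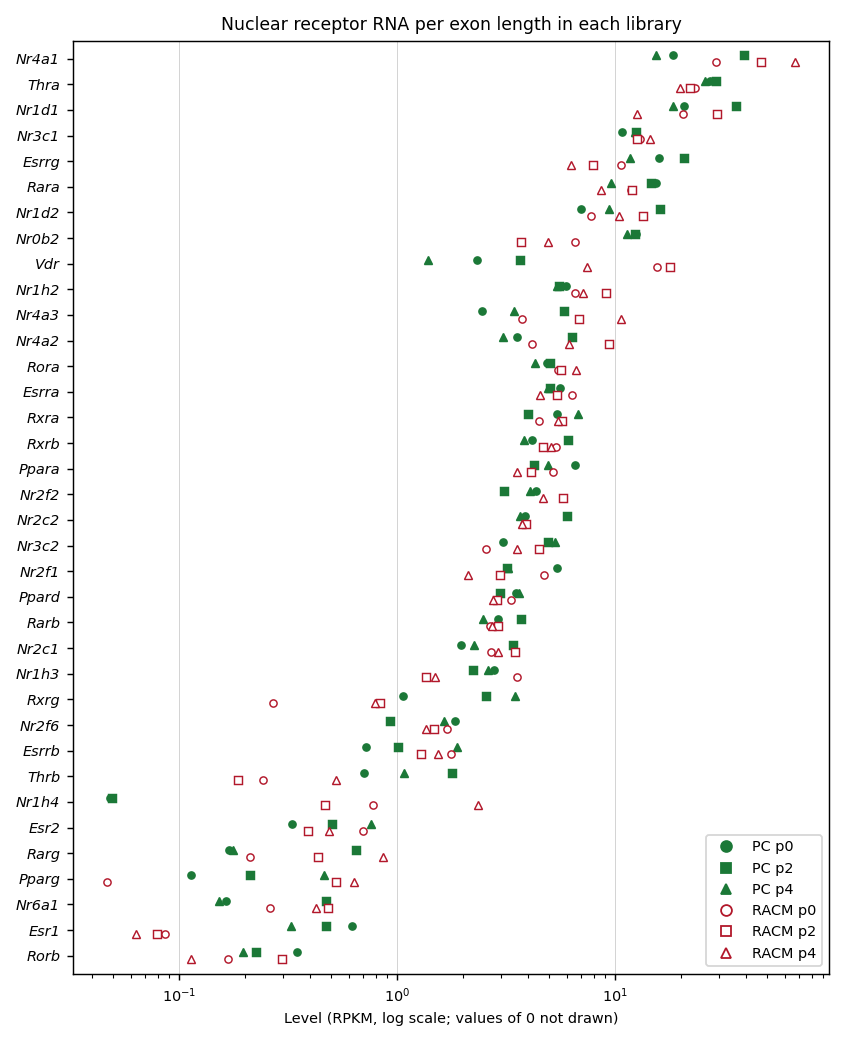
Level per exon length (RPKM, log x axis) of each of the 36 tested receptors (y axis, ordered by the mean of all libraries) in every library, with filled green symbols for PC and open red symbols for RACM. Nr4a1, Thra and Nr1d1 lead, and for Vdr and Nr1h4 every RACM symbol lies to the right of the PC symbols (the PC p4 value of 0 for Nr1h4 is not drawn).

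The receptor with the smallest adjusted p was Vdr, the vitamin D receptor, which pairs with RXR and controls calcium handling genes (ENSMUSG00000022479, mm10 chromosome 15, 97854425 to 97910630, minus strand). It had 13.1, 20.8 and 7.84 CPM in PC, against 88.0, 101 and 41.9 CPM in RACM. The highest PC library was lower than the lowest RACM library, and in both cell types p4 was the lowest. Means were 13.9 ± 6.52 CPM in PC, against 77.0 ± 31.1 CPM in RACM (SD, n = 3; log2 fold change -2.47, approximate SE 0.41, from the F statistic; edgeR adjusted p = 0.00933). Of 14 alternatives the call was lost in 1, with PC p0 left out, where the adjusted p was 0.0553 with a log2 fold change of -2.42. The macrophage marker sums were also lower in PC (10.2 to 57.4 CPM) than in RACM (188 to 872 CPM), while within RACM the sum was highest and Vdr lowest in p4, and the part of those cells in the Vdr difference was not tested. The bases upstream of its RefSeq start are shown because Vdr had the smallest adjusted p in the family. Neither strand of this window holds any of the 3 motifs marked in the windows of other members.

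Vdr, 250 bases upstream, chr15:97908297-97908546, minus strand (RefSeq, GRCm38.p6):
Vdr: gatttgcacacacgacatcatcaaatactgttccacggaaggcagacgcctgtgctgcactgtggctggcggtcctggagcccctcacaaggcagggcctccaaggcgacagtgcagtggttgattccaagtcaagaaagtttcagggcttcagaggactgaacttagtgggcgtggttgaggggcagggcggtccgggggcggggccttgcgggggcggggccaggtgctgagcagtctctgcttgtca

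Nr0b2, also called SHP, lacks a DNA-binding domain and represses other nuclear receptors by binding them (ENSMUSG00000037583, mm10 chromosome 4, 133553376 to 133556536, plus strand). It had 14.2, 13.97 and 12.9 CPM in PC, against 7.39, 4.19 and 5.58 CPM in RACM. The PC libraries lay close together and all lay above the RACM libraries. Means were 13.7 ± 0.681 CPM in PC, against 5.72 ± 1.61 CPM in RACM (log2 fold change 1.26, SE 0.31; edgeR adjusted p = 0.0427). Leaving out any library other than RACM p0 ended the call, with adjusted p-values from 0.0753 to 0.172 and log2 fold changes from 1.08 to 1.30. The other receptor without a DNA-binding domain, Nr0b1 (DAX1), had no count in any library.

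Nr1h4, the bile acid receptor FXR, is known in liver as an inducer of Nr0b2 (ENSMUSG00000047638, mm10 chromosome 10, 89454234 to 89533585, minus strand). It had 2, 2 and 0 counts in PC, against 26, 18 and 113 counts in RACM. As levels these are 0.111, 0.113 and 0 CPM in PC, against 1.80, 1.08 and 5.44 CPM in RACM. It was nearly undetected in PC and low in RACM, where p4 held most of the counts. The RACM level was 42.9 times the PC level (95% counting interval 16.4 to 159, from 157 against 4 counts), with an edgeR adjusted p of 0.0241. The call was lost without RACM p4, which held 113 of the 157 counts, where the adjusted p was 0.131. The fitted log2 fold change, which rests on a prior count at such low counts, was -5.14 with all libraries and -4.17 once RACM p4 was dropped, and it was -3.61 when PC p4 was dropped as well. It was also lost without any single PC library, with adjusted p-values from 0.0506 to 0.0800. RACM p4 was also the library with the highest macrophage and fibroblast marker sums (872 and 11473 CPM), and their part in this difference was not tested.

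The upstream bases of both genes are shown because they were called in opposite directions. The hexamer AGGTCA is the classical motif of nuclear receptors and CACGTG is the E-box read by clock factors and others. Both strands were searched in the 250 bases upstream of each RefSeq start. AGGTCA (reverse complement TGACCT) was in 14% and CACGTG in 6.02% of 32851 promoters, and in 11 and 5 of the 63 promoters that belong to the 42 members with an entry. A match is a description of letters only. Capitals mark CACGTG in Nr0b2 and TGACCT in Nr1h4.
Nr0b2, chr4:133553126-133553375, plus strand (RefSeq, GRCm38.p6):
Nr0b2: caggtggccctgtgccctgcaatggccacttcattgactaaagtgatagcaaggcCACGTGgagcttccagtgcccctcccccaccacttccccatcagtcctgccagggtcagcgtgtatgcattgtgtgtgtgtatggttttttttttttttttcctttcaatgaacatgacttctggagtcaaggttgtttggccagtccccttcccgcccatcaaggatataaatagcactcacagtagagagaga
Nr1h4, chr10:89506659-89506908, minus strand (RefSeq, GRCm38.p6):
Nr1h4: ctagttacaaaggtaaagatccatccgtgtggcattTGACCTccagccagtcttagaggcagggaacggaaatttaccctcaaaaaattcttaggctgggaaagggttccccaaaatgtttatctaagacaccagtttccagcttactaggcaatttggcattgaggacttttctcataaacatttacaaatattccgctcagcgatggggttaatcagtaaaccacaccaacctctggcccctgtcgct

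Among the steroid receptors, Esr1, oestrogen receptor alpha, was higher in PC (ENSMUSG00000019768, mm10 chromosome 10, 4611593 to 5005614, plus strand). It had 8.47, 6.45 and 4.44 CPM in PC, against 1.17, 1.08 and 0.866 CPM in RACM. Every PC library was above every RACM library, and p0 was the highest in both cell types. Means were 6.45 ± 2.02 CPM in PC, against 1.04 ± 0.158 CPM in RACM (log2 fold change 2.63, SE 0.47; edgeR adjusted p = 0.0127). The call was lost without PC p0 (adjusted p = 0.0597) and without RACM p2 (adjusted p = 0.0639). Its paralog Esr2, oestrogen receptor beta, averaged 1.79 ± 0.722 CPM in PC, against 1.77 ± 0.529 CPM in RACM and was not called (log2 fold change 0.02, SE 0.58).

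Nr3c1, the glucocorticoid receptor, had 82.6, 96.1 and 95.1 CPM in PC, against 99.7, 97.3 and 111 CPM in RACM. The PC libraries were all lower, by little, and the difference did not pass (log2 fold change -0.17, SE 0.15; adjusted p = 0.590). Nr3c2, the mineralocorticoid receptor, averaged 28.7 ± 7.74 CPM in PC, against 22.8 ± 6.22 CPM in RACM, with overlapping libraries. Pgr, the progesterone receptor, was not tested, with 1 count in PC and 17 in RACM.

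**Figure D3:**
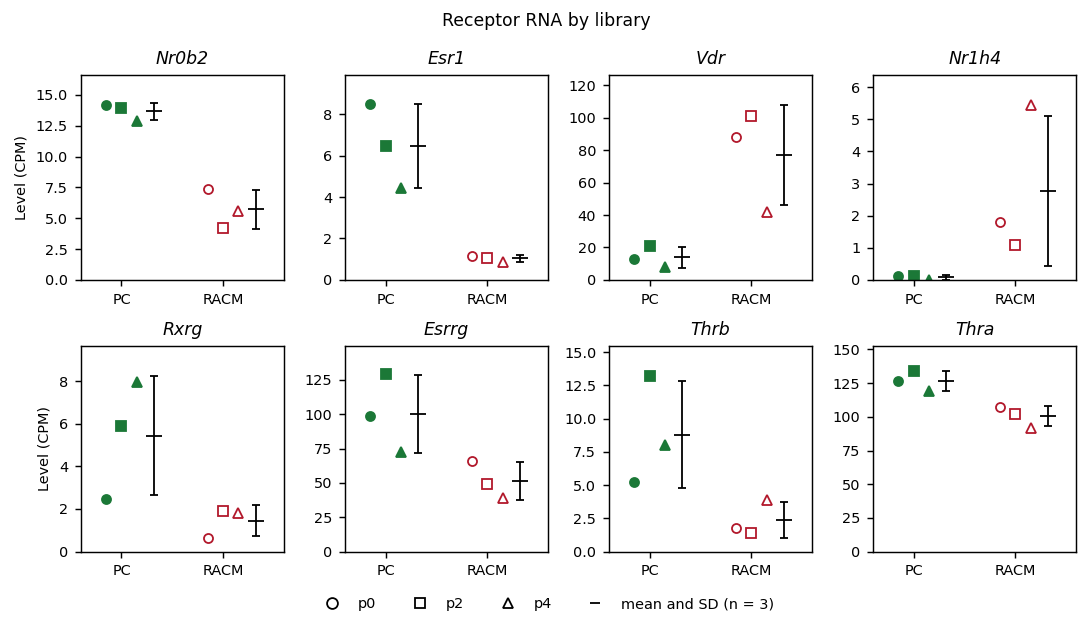
CPM (y axis, from 0) of 8 receptors in each PC (filled green) and RACM (open red) library, with the mean and SD of the 3 libraries in black. Nr0b2 and Esr1 were called higher and Vdr and Nr1h4 lower in PC; Rxrg, Esrrg, Thrb and Thra have every PC library above every RACM library without passing an adjusted p of 0.05.

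A further 4 receptors had every PC library above every RACM library and did not pass in the fit without pairing. Rxrg, the RXR isotype known for a restricted tissue range, had 2.45, 5.88 and 7.98 CPM in PC, against 0.622, 1.91 and 1.83 CPM in RACM (log2 fold change 1.89, SE 0.62; adjusted p = 0.112). In both cell types p0 was the lowest. With the p number as a replicate block the adjusted p was 0.0377. With any single library left out Rxrg did not pass (adjusted p from 0.0943 to 0.240).

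Esrrg, an orphan receptor related to the oestrogen receptors that is known to drive genes of mitochondrial oxidation in heart, had 98.9, 129 and 72.7 CPM in PC, against 66.0, 49.0 and 39.1 CPM in RACM. Its libraries did not overlap, and the mean was 100.2 ± 28.2 CPM in PC, against 51.4 ± 13.6 CPM in RACM (SD, n = 3). Its log2 fold change of 0.96 (SE 0.26) had an adjusted p of 0.0577, and of 0.0152 with the replicate block. It passed without PC p4 (adjusted p = 0.0400) and without RACM p0 (adjusted p = 0.0366). Without any other single library it did not pass (adjusted p from 0.137 to 0.196). The other oestrogen-related receptors, Esrra and Esrrb, had log2 fold changes of -0.06 and -0.34 and overlapping libraries. Under the replicate block 4 receptors were called higher (Nr0b2, Esr1, Rxrg and Esrrg) and 2 lower (Vdr and Nr1h4), beside 11.6% of all genes in either direction.

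The thyroid hormone receptors Thra and Thrb bind the hormone T3 and are known to set cardiac contraction and rate genes. Thrb had 5.24, 13.2 and 7.98 CPM in PC, against 1.80, 1.38 and 3.90 CPM in RACM (log2 fold change 1.89, SE 0.54; adjusted p = 0.0704, and 0.0522 with the replicate block). It passed without RACM p4 (adjusted p = 0.0460), and without any other single library it did not (adjusted p from 0.0888 to 0.231). Thra was far more abundant, with 127, 134 and 119 CPM in PC, against 107, 102 and 92.1 CPM in RACM. Its libraries did not overlap, yet the difference was small and not called (log2 fold change 0.33, SE 0.15; adjusted p = 0.231). Thra and Nr1d1 lie tail to tail and share 263 exon bases on opposite strands, and reads were counted without strand, so reads in that stretch cannot be told apart.

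The retinoic acid receptors Rara, Rarb and Rarg bind retinoic acid, which is known to pattern the inflow end of the embryonic heart. Rara, the most abundant, had 67.2, 63.9 and 41.7 CPM in PC, against 51.8, 52.3 and 37.8 CPM in RACM, with overlapping libraries (log2 fold change 0.28, SE 0.23; adjusted p = 0.548). Rarb averaged 16.0 ± 3.28 CPM in PC, against 14.6 ± 0.666 CPM in RACM, and 38.4% of its exon bases are shared with Top2b on the other strand. Rarg was low, at 1.42 ± 1.17 CPM in PC, against 2.14 ± 1.40 CPM in RACM. The common RXR partners also overlapped: Rxra averaged 33.8 ± 8.71 CPM in PC, against 32.9 ± 4.25 CPM in RACM, and Rxrb 18.6 ± 4.82 CPM in PC, against 20.1 ± 1.35 CPM in RACM.

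Of the 10 fatty acid, sterol, bile acid and xenobiotic sensors, 6 were tested and Nr1h4 alone was called. Ppara, Ppard and Pparg, the fatty acid sensors, had log2 fold changes of 0.30, 0.17 and -0.62 with overlapping libraries, and Pparg was near 1 CPM. Nr1h2, the broadly expressed oxysterol receptor LXR beta, had 20.1, 18.7 and 18.2 CPM in PC, against 21.96, 30.6 and 24.1 CPM in RACM. The PC libraries were all lower, and the difference did not pass (log2 fold change -0.43, SE 0.21; adjusted p = 0.283). Its relative Nr1h3 averaged 6.397 ± 0.727 CPM in PC, against 5.36 ± 3.08 CPM in RACM. The sensors that were not tested were at the edge of detection: Nr1i2 (PXR) had 22 counts in PC and 26 in RACM, Nr1i3 (CAR) 3 and 2, Hnf4g 0 and 3, and Hnf4a none in any library. Nr1i3 shares 74.9% of its exon bases with Tomm40l on the other strand, where reads cannot be told apart, so its low counts are not evidence of absence. A count of 0 allows up to 3 counts in a library, or 0.142 to 0.207 CPM.

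COUP transcription factors are orphan receptors, and Nr2f2 is known in the mouse for atrial identity. Nr2f2 averaged 33.2 ± 5.65 CPM in PC, against 46.6 ± 5.53 CPM in RACM, with every PC library below every RACM library (log2 fold change -0.49, SE 0.20; adjusted p = 0.185). Nr2f1 averaged 20.1 ± 6.47 CPM in PC, against 16.6 ± 6.74 CPM in RACM and was highest in p0 of both cell types. Nr2f6 shares 54.4% of its exon bases with Ocel1 and the testicular receptor Nr2c2 31.2% with Mrps25, on opposite strands, and both, like Nr2c1, overlapped between the cell types. Nr2e1 had 0 counts in PC and 2 in RACM. Nr2e3, a receptor of photoreceptor cells, had 0 in PC and 19 in RACM, 15 of them in RACM p2. Nr5a1, known for steroid-producing organs, had 0 and 6 counts, and Nr5a2 3 and 8. Nr6a1, the germ cell nuclear factor, averaged 2.84 ± 1.95 CPM in PC, against 4.22 ± 1.24 CPM in RACM and was not called.

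Clock receptors form 2 opposing sets: the REV-ERBs Nr1d1 and Nr1d2 repress the clock activator gene Arntl, and the RORs activate it. Nr1d1 had 64.1, 111 and 56.5 CPM in PC, against 63.0, 90.2 and 38.8 CPM in RACM. Nr1d2 had 37.9, 86.8 and 50.5 CPM in PC, against 41.8, 72.9 and 56.6 CPM in RACM. In both genes and both cell types p2 was the highest library, and the cell types overlapped (log2 fold changes of PC over RACM 0.27 and 0.03). Rora had 61.8 ± 4.86 CPM in PC, against 77.5 ± 7.80 CPM in RACM, with every PC library lower and an adjusted p of 0.278. Rorb averaged 2.84 ± 0.889 CPM in PC, against 2.14 ± 1.05 CPM in RACM.

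The p number was tested over both cell types with cell type in the model, so that each number had 1 library of each cell type. The spread in this test is therefore the disagreement between the cell types over the numbers. It is not a spread between independent pools of hearts at a number. Libraries of the same number deviated together, and no label says whether they share hearts. By the edgeR test no receptor was called, beside 0.00555% of all genes (1 gene). At an unadjusted p under 0.05 there were 9 of 36 (Vdr, Nr1d1, Nr1d2, Nr4a2, Nr2f1, Nr4a3, Nr3c2, Rara and Esrrg), beside 11.9% of all genes. DESeq2 called 3 receptors (Vdr, Nr1d1 and Nr1d2), beside 686 of 18015 genes. With limma-voom 2 were called (Vdr and Nr1d1), beside 170 of 18015 genes. Without RACM p4, edgeR called 4 receptors (Vdr, Nr1d1, Nr1d2 and Nr4a1), beside 458 of 18882 genes. Without PC p4 it called 3 (Nr1d1, Nr4a1 and Nr4a3), beside 229 of 19258 genes. Without PC p0 it called 1 (Vdr), beside 257 of 19340 genes. With any other single library left out it called 0 receptors, beside 77 to 376 genes. The smallest p-values of the edgeR test belonged to Vdr (log2 difference from p0 of 0.42 in p2 and -0.92 in p4; adjusted p = 0.116) and Nr1d1 (0.65 and -0.44; adjusted p = 0.148). Nr1d2 followed (1.005 and 0.429; adjusted p = 0.191), and then Nr4a2 (1.0005 and 0.189; adjusted p = 0.279). For 8 of the 36 receptors p2 was the highest library in both cell types (Vdr, Nr1d1, Nr1d2, Nr4a2, Nr6a1, Nr2c1, Nr2c2 and Rarb), beside 15.5% of all genes. A test of whether the slope over the number differs between the cell types, added after the values were seen, called no gene by edgeR. At an unadjusted p under 0.05 it gave 760 genes and no receptor.

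**Figure D4:**
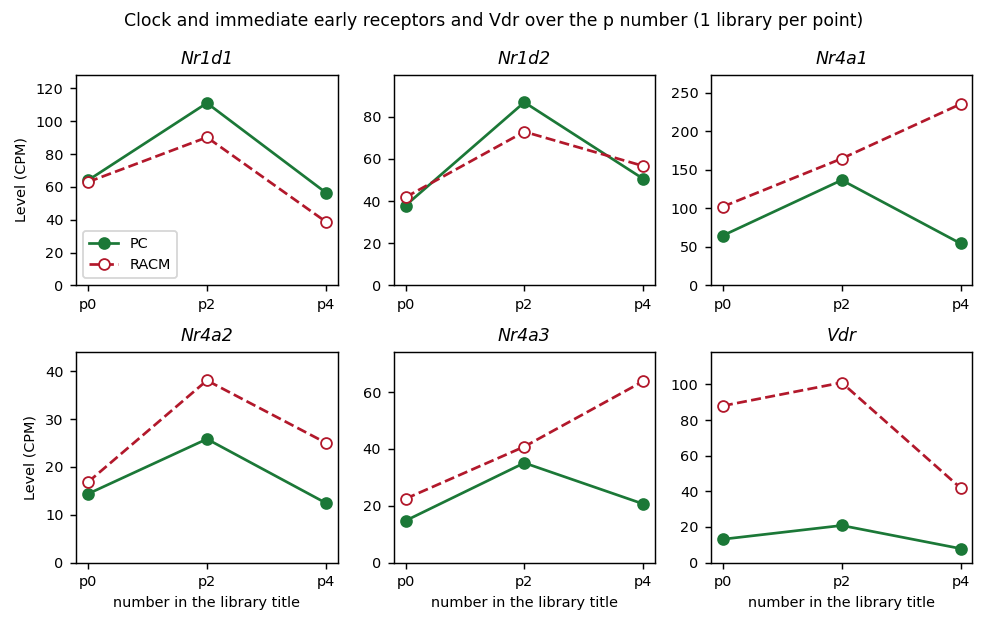
CPM (y axis, from 0) of 6 receptors against the number in the library title (x axis), 1 library per point, with PC in green and RACM in red. Nr1d1, Nr1d2, Nr4a2 and Vdr were highest at p2 in both cell types, while Nr4a1 and Nr4a3 were highest at p2 in PC and at p4 in RACM.

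The upstream bases of the 2 REV-ERB genes are shown because each gene kept its own order over the numbers in both cell types. This is not particular to them: other receptors, among them Vdr, Esr1, Esrra, Nr2c1 and Nr2c2, also kept their order in both cell types. In both genes p2 was highest, and p4 was lowest for Nr1d1 and p0 for Nr1d2. Capitals mark the motif AGGTCA, which Nr1d2 holds once; the Nr1d1 window holds none of the motifs searched.
Nr1d1, chr11:98775378-98775627, minus strand (RefSeq, GRCm38.p6):
Nr1d1: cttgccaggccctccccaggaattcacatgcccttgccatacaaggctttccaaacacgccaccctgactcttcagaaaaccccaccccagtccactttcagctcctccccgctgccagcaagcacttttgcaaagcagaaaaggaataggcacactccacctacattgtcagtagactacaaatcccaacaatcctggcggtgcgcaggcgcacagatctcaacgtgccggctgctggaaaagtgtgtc
Nr1d2, chr14:18239107-18239356, minus strand (RefSeq, GRCm38.p6):
Nr1d2: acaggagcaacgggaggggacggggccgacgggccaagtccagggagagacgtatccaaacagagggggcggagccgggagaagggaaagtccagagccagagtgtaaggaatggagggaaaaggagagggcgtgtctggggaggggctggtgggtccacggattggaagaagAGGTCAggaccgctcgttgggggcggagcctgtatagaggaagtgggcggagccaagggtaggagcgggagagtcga

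The NR4A receptors Nr4a1, Nr4a2 and Nr4a3 act without a known natural ligand and are immediate early genes, transcribed within minutes of calcium, cyclic AMP or other signals. Nr4a1 had 64.7, 137 and 54.4 CPM in PC, against 102, 165 and 235 CPM in RACM. Nr4a2 had 14.4, 25.8 and 12.5 CPM in PC, against 16.9, 38.1 and 25.1 CPM in RACM. Nr4a3 had 14.7, 35.1 and 20.6 CPM in PC, against 22.4, 40.8 and 63.8 CPM in RACM. For all 3 genes PC was lower than RACM at each number, and the ranges of the cell types overlapped. None was called: log2 fold changes were -0.97 (SE 0.39; adjusted p = 0.184), -0.60 (SE 0.36; adjusted p = 0.402) and -0.85 (SE 0.41; adjusted p = 0.278) for Nr4a1, Nr4a2 and Nr4a3. Without both p4 libraries the Nr4a1 log2 fold change was -0.43. RACM p4, where Nr4a1 and Nr4a3 were highest, also had the highest macrophage and fibroblast marker sums (872 and 11473 CPM). Its cardiomyocyte marker sum was the lowest of all libraries (66556 CPM). The part of this cell mixture in the NR4A values was not tested.

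The upstream bases of the 3 genes are shown because they hold repeated copies of CGTCA (reverse complement TGACG); this is the core of the cyclic AMP response element, marked in capitals. Each of the 3 windows holds 4 copies, counting both strands. At least 1 copy was in 17.8% of all 32851 promoters and at least 4 in 0.137% (45 promoters). The letters were searched with these sequences in view, so the count is a description.
Nr4a1, chr15:101266596-101266845, plus strand (RefSeq, GRCm38.p6):
Nr4a1: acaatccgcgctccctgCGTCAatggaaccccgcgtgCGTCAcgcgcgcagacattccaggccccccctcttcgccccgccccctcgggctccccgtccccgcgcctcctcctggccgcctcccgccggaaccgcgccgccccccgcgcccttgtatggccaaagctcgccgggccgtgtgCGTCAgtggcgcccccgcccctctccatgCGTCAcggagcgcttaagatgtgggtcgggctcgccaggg
Nr4a2, chr2:57124004-57124253, minus strand (RefSeq, GRCm38.p6):
Nr4a2: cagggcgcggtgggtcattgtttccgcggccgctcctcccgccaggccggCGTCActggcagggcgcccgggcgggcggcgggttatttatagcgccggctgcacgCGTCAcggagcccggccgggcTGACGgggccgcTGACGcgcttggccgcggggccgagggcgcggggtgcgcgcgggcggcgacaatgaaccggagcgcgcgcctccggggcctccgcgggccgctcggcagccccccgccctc
Nr4a3, chr4:48045055-48045304, plus strand (RefSeq, GRCm38.p6):
Nr4a3: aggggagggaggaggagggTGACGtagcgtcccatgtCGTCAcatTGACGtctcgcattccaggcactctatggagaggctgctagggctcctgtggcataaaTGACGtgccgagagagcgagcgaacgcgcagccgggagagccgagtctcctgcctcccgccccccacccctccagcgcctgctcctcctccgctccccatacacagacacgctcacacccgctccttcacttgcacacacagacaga

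Genes connected to the receptors were taken from lists of cofactors, ligand handling and targets. Of 18 coactivators 1 was higher in PC and none lower: Ppargc1b, a partner of the oestrogen-related receptors and PPARs, had 54.8, 43.9 and 58.8 CPM in PC, against 33.3, 25.8 and 17.4 CPM in RACM (log2 fold change 1.04, SE 0.25; adjusted p = 0.0410). Leaving out any library other than RACM p0 ended this call (adjusted p up to 0.142). The replicate block called 2 coactivators higher, with Ncoa2 added (adjusted p = 0.0432), and 1 lower, Kat2b (adjusted p = 0.0136). Of 11 corepressors 0 were called by edgeR, 0 by DESeq2 and 0 by limma-voom, and 0 had an unadjusted p under 0.05 by edgeR. The median log2 fold changes were 0.08 and -0.01, against 0.01 over all genes.

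Of 25 PPAR and oestrogen-related receptor targets, none was higher and 2 were lower in PC, with a median log2 fold change of 0.26. The pair was Ucp2, a mitochondrial carrier, at 78.6 ± 4.71 CPM in PC, against 314 ± 77.6 CPM in RACM (log2 fold change -2.00, SE 0.20; adjusted p = 0.000728), and Plin2, a lipid droplet coat protein (log2 fold change -1.17; adjusted p = 0.0163). Without RACM p2 the adjusted p of Plin2 was 0.0777, while Ucp2 was called with every library left out in turn. The macrophage marker sums given above were also lower in PC, and the part of those cells in these differences was not tested. The replicate block called 5 higher and 2 lower.

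Of 18 genes of retinoic acid supply and response, 10 were tested, 1 was higher and 2 were lower in PC. Dhrs3, which turns retinal back to retinol, had 4.46, 5.32 and 6.94 CPM in PC, against 10.9, 19.3 and 22.9 CPM in RACM (log2 fold change -1.67, SE 0.35; adjusted p = 0.0237). Leaving out any library other than PC p4 and RACM p0 ended the call (adjusted p up to 0.103). The fibroblast marker sum was 949, 1041 and 2323 CPM in PC, against 1754, 3999 and 11473 CPM in RACM. Like Dhrs3, it was lower in PC at each number and rose from p0 to p4 in both cell types. The part of those cells in the differences of this list was not tested. The median of the 10 was -0.93, and the block called 2 higher and 4 lower.

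Of 15 thyroid hormone genes, 11 were tested, and 1 was lower and none higher in PC. Of 16 tested steroid hormone genes 1 was lower, Errfi1, a feedback inhibitor of EGF receptor signalling that glucocorticoids induce (log2 fold change -1.46; adjusted p = 0.0402, and up to 0.138 with 1 library other than RACM p0 left out). The replicate block called 2 of these lower, with Dusp1 added (adjusted p = 0.0198). Of 11 tested LXR and sterol genes 2 were lower: Apoe, which carries lipid, at 52.7 ± 16.4 CPM in PC, against 471 ± 195 CPM in RACM (log2 fold change -3.16; adjusted p = 0.00168), and the cholesterol exporter Abca1 (log2 fold change -1.41; adjusted p = 0.00786). Macrophages also express Apoe and Abca1, and the macrophage marker sums given above moved the same way, a part that was not tested.

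Of 16 clock genes 3 were higher in PC and none lower. Hlf, a clock output factor, had 250.2, 305 and 256 CPM in PC, against 108, 109 and 61.1 CPM in RACM (log2 fold change 1.54, SE 0.24; adjusted p = 0.00637). Npas2, a partner of Arntl's protein, followed (log2 fold change 1.33; adjusted p = 0.0187), and so did the repressor Bhlhe41, which shares 19.0% of its exon bases with a gene on the other strand (log2 fold change 1.003; adjusted p = 0.0205). Hlf was called with every library left out in turn, whereas the adjusted p reached 0.0788 for Npas2 and 0.102 for Bhlhe41. The replicate block called 4 clock genes higher, with Bhlhe40 added (adjusted p = 0.0110), and 1 lower, the repressor Per2 (adjusted p = 0.0450). For the p number, 6 of the 16 had an unadjusted p under 0.05 and none an adjusted one by edgeR, beside 11.9% of all genes. The other connected lists ranged from 0 of 11 corepressors and 0 of 13 immediate early genes to 15 of 25 PPAR and oestrogen-related receptor targets. Among the 16 clock genes p2 was the highest library in both cell types for 5. Per3, a clock repressor, had 37.1, 98.6 and 61.5 CPM in PC, against 42.2, 83.6 and 52.2 CPM in RACM (adjusted p = 0.126), the same order as Nr1d2. Of 13 immediate early genes Egr3 alone was called, with 9.09, 11.5 and 7.65 CPM in PC, against 17.5, 46.001 and 75.4 CPM in RACM. Its log2 fold change was -2.30 (SE 0.46), with an edgeR adjusted p of 0.0199, and up to 0.0864 with 1 library left out. RACM p4, where Egr3 was highest, also had the highest macrophage and fibroblast marker sums, and the part of those cells was not tested. A negative log2 fold change was found for 12 of the 13, beside 8921 of all 18015 genes tested, and the list median was -0.16.

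**Figure D5:**
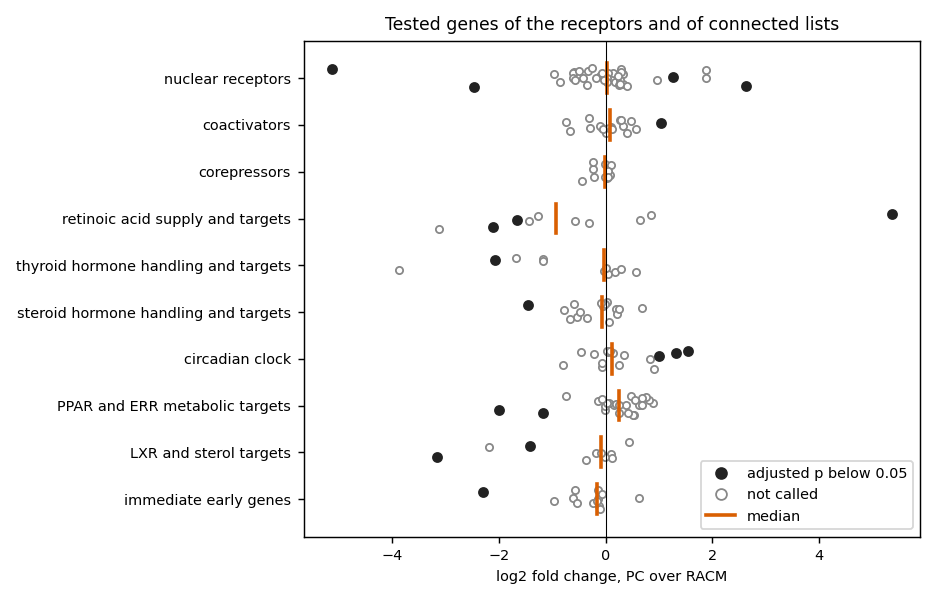
Log2 fold change of PC over RACM (x axis) for every tested gene of the receptors and of 9 connected lists (y axis), with filled points for an adjusted p below 0.05 and an orange bar for the list median. Clock genes that were called lie to the right of 0 and called LXR, PPAR and thyroid genes to the left.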

How the data were processed

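The deposited values are whole counts of read pairs over the exons of each gene, made with featureCounts 2.0.1 on mm10 without a strand option, per the file headers. The submitters' processing notes also list Trimmomatic, HISAT2 and edgeR, with no versions. Complementary DNA was made and amplified with a NuGEN Ovation kit before paired-end sequencing, per the labels' protocols. The file headers show that the p0 alignment files first had no number in their names.

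The filter filterByExpr, grouped by cell type with a minimum count of 10 and a minimum total of 15, kept 18015 genes. TMM scaling and the 2-sided quasi-likelihood test came from edgeR 4.0.16 in R 4.3.3, with p-values adjusted by Benjamini-Hochberg over those genes (threshold 0.05). CPM used TMM-scaled library sizes, and RPKM is CPM per kilobase of exon. Standard errors are approximate (log2 fold change over the square root of F). Ratios of counts have exact binomial 95% intervals. Only counting error enters these intervals and the floor of 3 counts. With 3 libraries against 3 an exact permutation test cannot go below 0.1, so none is given. The common biological coefficient of variation was 0.399, and CT010467.1, a ribosomal RNA pseudogene, took 9.60% to 13.9% of counts. Of these steps, the edgeR tests of cell type and of the p number, at their main settings, were run on simulated counts. The alternatives tried were other scalings (RLE and upper-quartile), no filter, a filter of 5 CPM, DESeq2 1.42.0, limma-voom (limma 3.58.1), each library left out, both p4 libraries left out, a linear p number and the replicate block.

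Libraries of the same p number deviated together from their cell type means, with correlations across genes of 0.156 (p0), 0.234 (p2) and 0.237 (p4), and no library correlated better with one of another number. They were treated as pairs in the replicate block only, and the main fit held cell type alone. This pairing is read from the data, since no label states it, and counts of calls that the block moved are given beside the unblocked ones. No replicates were near-identical (chi-square per degree of freedom 26.2 to 65.6). Each library is a pool of hearts that the labels call a biological replicate, and the spread within a cell type includes whatever the p number marks.

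The members and gene lists were chosen with earlier results of these data known. Values per library are given for receptors called between the cell types, for uncalled ones among the 12 of highest mean RPKM, and for the 4 of smallest p for the p number. Of each list, the called genes of smallest p and the first of opposite sign are named. Rxrg and Thrb were added because their libraries did not overlap, after their values were seen, and Nr2f2 and Per3 likewise. Some called genes of the lists enter the counts and are not reported here by name.

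Promoter sequences are from RefSeq on GRCm38.p6, which shares its coordinates with mm10, and 42 of the 46 members matched. Motifs were chosen with the sequences in view. Of the members 13 share exon bases with another gene, 4 of them over 10% of their length, and the 4 called receptors share none. Chromatin samples were not analysed here.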

Additional observations from a re-analysis of the deposited data

How the results depend on the processing

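The 4 receptor calls kept their direction in every alternative that tested them, and RLE and upper-quartile scaling called the same 4. Over the tested receptors and the called connected genes, these scalings moved the log2 fold change by a median of -0.01 and -0.06. Genes called numbered 1309, and were 2339 with no filter, 2082 with the replicate block, 2304 with DESeq2 and 734 without both p4 libraries. Of the 1309 the replicate block also called 1267 and DESeq2 1307. Receptors called higher numbered 2, and were 5 with no filter, 4 with the replicate block, 5 with DESeq2 and 1 without both p4 libraries. Receptors called lower numbered 2, and were 1 with the 5 CPM filter, which left out Nr1h4 and Esr1, 1 with limma-voom (Nr1h4 had an adjusted p of 0.0717) and 1 without both p4 libraries. Leaving out single libraries gave 511 to 1338 genes, 0 to 3 receptors higher and 0 to 2 lower. The counts were lowest without RACM p2 (511 genes; Vdr and Nr1h4) and without PC p0 (570 genes; 0 receptors, none of the 4). The replicate block changed no call among the receptors other than Rxrg and Esrrg. DESeq2 added these and Thrb, and the fit with no filter added also Nr4a1 (adjusted p = 0.00782). With 2 libraries in an arm the spread was pooled over both cell types.

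For the p number, 1 gene and 0 receptors were called. With no filter these were 720 and 4, with the 5 CPM filter 54 and 0, with DESeq2 686 and 3, with limma-voom 170 and 2, and with a linear number 6 genes. Leaving out single libraries gave 77 to 458 genes and 0 to 4 receptors. The cause of these shifts was not tested. No block on the number can be fitted beside a test of the number itself.

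Small uncalled log2 fold changes turned sign. Upper-quartile scaling gave -0.021 for Rxra, -0.028 for Esr2 and -0.025 for Nr1d2, and the 5 CPM filter -0.0107 for Rxra and -0.0109 for Nr1d2. The replicate block gave -0.0050 for Esr2 and -0.017 for Nr1d2, and limma-voom -0.029 for Nr1d2. Without both p4 libraries the values were 0.31 for Rarg, -0.15 for Rxra and -0.40 for Esr2. With single libraries left out the ranges were -0.15 to 0.22 for Rxra, -0.32 to 0.28 for Esr2, -0.36 to 0.27 for Nr1d2, -1.52 to 0.035 for Rarg, -0.017 to 0.64 for Nr2f1, -0.030 to 0.26 for Rarb, -0.072 to 0.60 for Nr1d1, -0.22 to 0.22 for Nr2f6, -0.012 to 0.38 for Nr2c2, -0.33 to 0.018 for Rxrb and -0.18 to 0.072 for Esrra. Of the 14 called connected genes, 4 (Hlf, Ucp2, Abca1 and Apoe) were called in every alternative that tested them. Receptors under about 1 CPM, such as Nr1h4 in PC, rest on a handful of counts, which limits what depth can show for them.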
